A study of Homo sapiens with 24 samples.

Results

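The proteasome genes of CD18/HPAF cells, an established human pancreatic cancer line, were examined after exposure to ISOX, also known as CAY10603, an inhibitor of histone deacetylase HDAC6. The members were taken by name: every row of the deposited gene table with a name that starts with PSM, a letter from A to G and a number. This gave 76 of 30276 rows, which carry 53 different names. The treated group (12 samples) was kept with 1 µM ISOX for 48 h, and the other group (12 samples) received no treatment; all were CD18/HPAF cells grown in DMEM with serum. The table holds FPKM, that is fragments corrected for transcript length and for library size. The sources used here do not say how library size was corrected for. Each gene has a single value per condition, pooled by the authors over the samples of that group. The values used here therefore have no SD and no n, no test was run on them, the depth is unknown, and the sources used here do not say whether the samples were separate cultures.

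The proteasome is the main protease of the cytosol and nucleus for proteins marked with ubiquitin. Its barrel-shaped core, the 20S particle, stacks rings of alpha subunits, which form the gate, on rings of beta subunits, some of which cut the substrate. A cap, the 19S particle, is bound to either end: its base holds a ring of ATPases that unfold the substrate, and its lid takes off the ubiquitin chain. Dedicated chaperones assemble both particles. HDAC6, the main target of ISOX, also binds ubiquitin and takes part in the transport of ubiquitinated aggregates. Its own transcript was at 6.36 FPKM without and 7.33 FPKM with ISOX, a log2 ratio of 0.20 that lies −0.006 from the median of all rows. By qPCR, in contrast, the authors report a significant decrease of the HDAC6 transcript with ISOX, in this line and in MiaPaCa2 cells. The epithelial identity of the line was checked by its markers: KRT19 was at 2970 and 3325 FPKM and EPCAM at 191 and 252 FPKM, while the leukocyte marker PTPRC was at 0.00579 and 0.0118 FPKM and CD3E was listed at 0 in both groups. Of the fibroblast markers, COL1A1 was at 2.48 and 2.75 FPKM, whereas COL1A2 and DCN stayed below 1 FPKM, as did the endothelial marker PECAM1.

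Every gene of the constitutive proteasome was expressed in CD18/HPAF cells. Of the 76 rows, 50 reached a mean of 1 FPKM over both groups. Besides 3 names that are no subunit (described below) and a second, minor row of PSMA3, these were 46 genes of subunits, activators, an inhibitor and assembly chaperones. Since FPKM is per length of transcript, levels can be set side by side between genes. In untreated cells the highest of the 46 was PSMA6, a subunit of the alpha ring, at 412 FPKM, followed by PSMB3 of the beta ring at 400 FPKM. The lowest was PSME4, which encodes a large nuclear activator, at 11.4 FPKM. Among genes with a PSM name, those of the 20S core stood above those of the 19S cap by median. The medians were 175 FPKM over 14 constitutive core genes and 65.1 FPKM over 17 cap genes. The cap genes SHFM1 (499 FPKM) and ADRM1 (89.4 FPKM) have no PSM name and were not counted here. The products of the core genes are present in equal copies within a particle, but their transcripts ranged 11.2-fold in untreated and 14.1-fold in ISOX-treated cells, from PSMB2 (37.0 and 44.3 FPKM) to PSMA6 (412 and 626 FPKM). The order of levels was much the same in both groups (Spearman's rho 0.97 across 46 genes, which share the same pooled libraries), and 7 genes moved by 5 or more places. Among them PSMA3 and PSMA4 went from places 8 and 10 to places 3 and 4, while PSMA7 went from 9 to 15 and PSMB10 from 21 to 31.

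**Figure D1:**
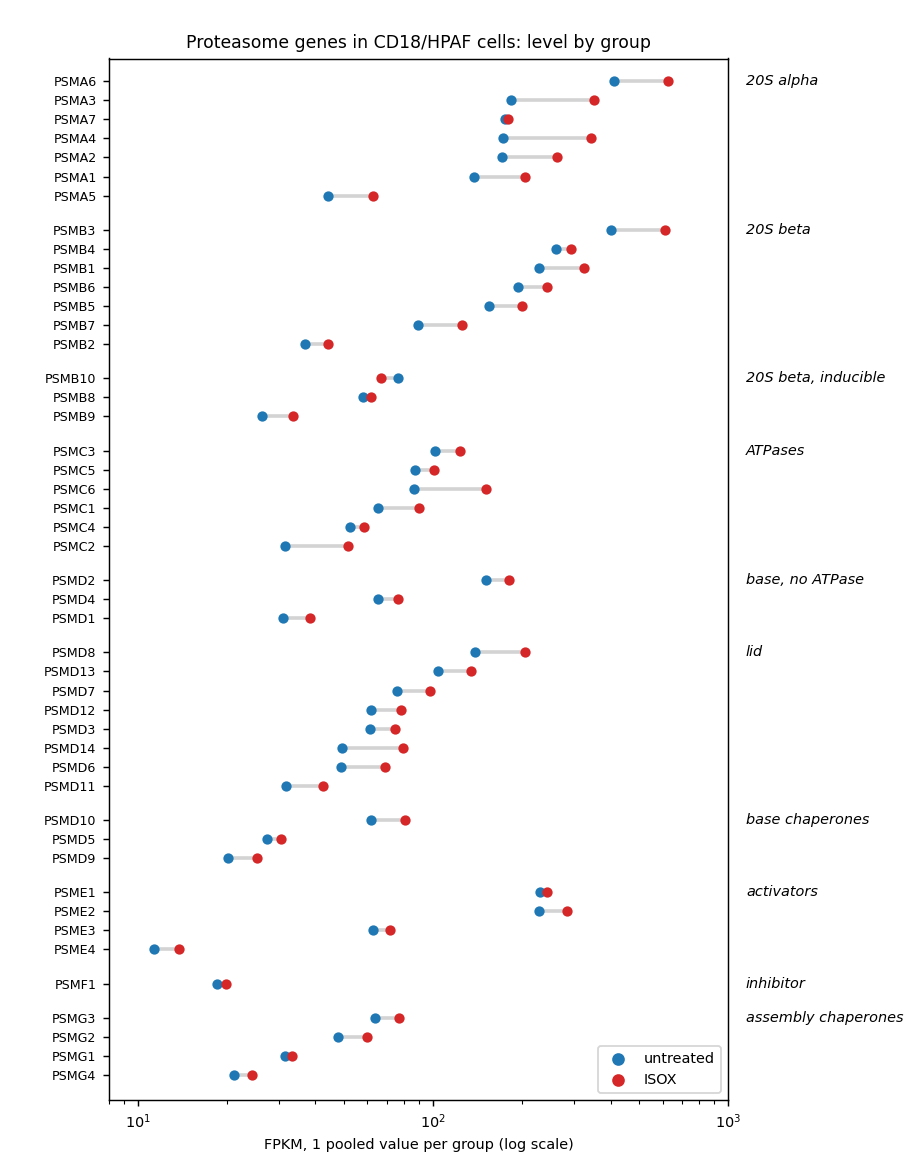
Level of 46 proteasome genes in untreated (blue) and ISOX-treated (red) CD18/HPAF cells, in FPKM on a log axis, each point a pooled value of a group with no error to draw. As deposited, PSMB10 is the only gene with its ISOX point to the left, while under a scaling by FPKM sums 30 of the 46 genes would lie lower with ISOX, and the longest bars belong to PSMA3, PSMA4 and PSMC6.

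With ISOX, 8 of the 46 genes were higher by more than 1.5-fold and none was lower by as much. These were PSMA4, PSMA3, PSMC6, PSMC2, PSMD14, PSMA2, PSMB3 and PSMA6, with log2 ratios of ISOX over untreated from 0.60 to 0.99. Their share, 17.4%, lay near the background: of the 11915 rows of the table with a mean of at least 1 FPKM, 12.4% were higher and 2.25% lower by more than 1.5-fold. The median log2 ratio was 0.33 over the 46 genes and 0.21 over all rows, which is a 1.16-fold shift of the whole table, and 45 of the 46 genes and 77.1% of all rows lay above 0. Measured from the median of all rows, 35 genes lay above and 11 below it. On that scale 3 genes were higher by more than 1.5-fold and none lower, beside 5.59% and 4.90% of all rows. Divided by the sum of FPKM in each group, which was 1.31-fold larger with ISOX, 16 genes lay above 0 and 30 below, with a median log2 ratio of −0.06. For 7 of the 46 genes the span of another expressed row overlaps, and without them the median of the other 39 genes was 0.32, with 7 higher and none lower by more than 1.5-fold. The direction of the group as a whole thus depends on the scaling, whereas differences between its members do not.

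**Figure D2:**
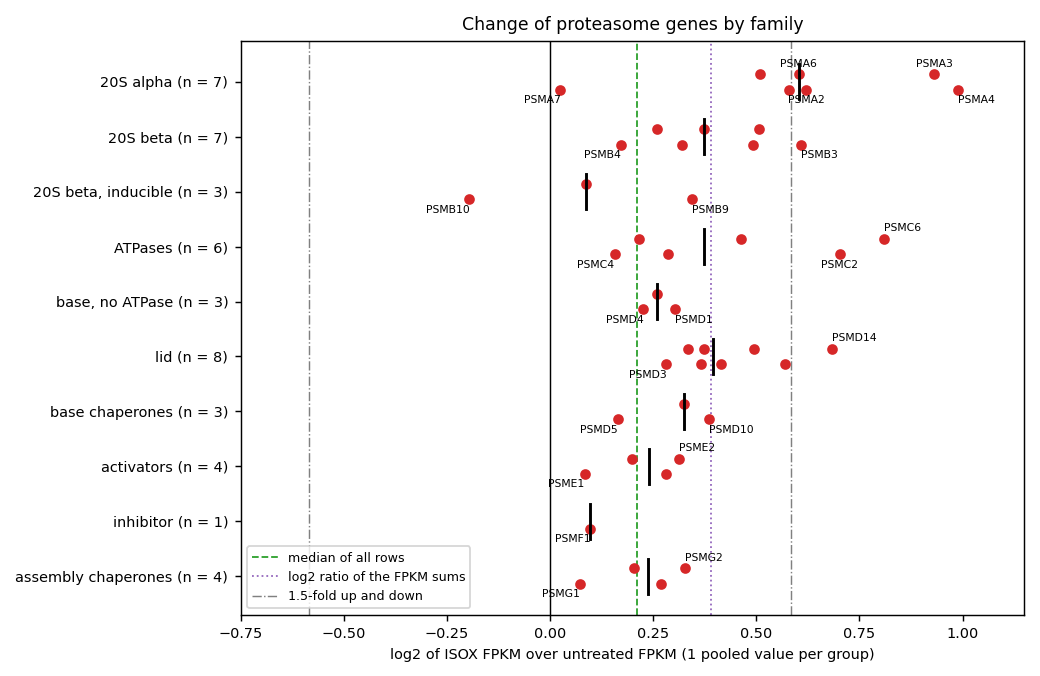
Log2 ratio of ISOX over untreated FPKM for 46 proteasome genes by family; points are genes, black bars family medians, and lines mark 0, the median of all rows (0.21), the log2 ratio of the FPKM sums (0.39) and a change of 1.5-fold. The alpha ring has the highest median (0.60), the inducible beta genes the lowest of the families with more than 1 gene (0.09), and the family medians apart from those of the alpha ring and the lid lie below 0 when scaled by FPKM sums.

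Among the genes with a PSM name the alpha ring held the largest ratios, and also PSMA7, whose level was nearly the same in both groups. The median log2 ratio of the 7 genes of the ring was 0.60. Of them, 4 were higher by more than 1.5-fold and none lower, beside 12.4% and 2.25% of all rows. Of these, 2 (PSMA3 and PSMA4) were past 1.5-fold under median scaling and 1 (PSMA4) by FPKM sums. PSMA4, on chromosome 15 from 78540405 to 78549221 of hg38, went from 173 FPKM in untreated to 344 FPKM in ISOX-treated cells (log2 ratio 0.99). PSMA3 was at 185 FPKM without and 352 FPKM with ISOX (log2 ratio 0.93). Its span on chromosome 14, from 58244805 to 58298142, also holds the antisense gene PSMA3-AS1, and the table gives PSMA3 a second row there. That row was at 8.07 and 5.23 FPKM (log2 ratio −0.63), against the direction of the main row, and made up 4.19% and 1.46% of their sum; summed, the log2 ratio was 0.89. PSMA2 was at 171 and 263 FPKM and PSMA6 at 412 and 626 FPKM, or 1.54-fold and 1.52-fold. PSMA1 (138 and 206 FPKM) and PSMA5 (44.1 and 62.8 FPKM) were just short of 1.5-fold, with log2 ratios of 0.58 and 0.51. PSMA7, in contrast, was at 176 FPKM without and 179 FPKM with ISOX (log2 ratio 0.02). PSMA3, PSMA4 and PSMA7 were thus at nearly the same level in untreated cells. The ratio of PSMA3 to PSMA7 went from 1.05 to 1.96 and that of PSMA4 to PSMA7 from 0.983 to 1.92, which no scaling between the groups can alter.

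The beta ring was more even. Of 7 constitutive genes, 1 was higher by more than 1.5-fold and none lower, beside 12.4% and 2.25% of all rows. Their median log2 ratio was 0.37 (below 0 when scaled by FPKM sums). PSMB3, a structural subunit, was at 400 FPKM without and 610 FPKM with ISOX (log2 ratio 0.61). PSMB1, also without a catalytic site, was at 228 and 324 FPKM, PSMB2 at 37.0 and 44.3 FPKM and PSMB4, the smallest ratio of the ring, at 261 and 294 FPKM (log2 ratio 0.17). The catalytic subunits lay between these. PSMB5, which carries the chymotrypsin-like activity and is the main site of bortezomib, was at 155 and 200 FPKM (log2 ratio 0.37). PSMB6, the caspase-like subunit, was at 195 and 243 FPKM (log2 ratio 0.32), and PSMB7, the trypsin-like subunit, at 89.2 and 125 FPKM (log2 ratio 0.49).

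The inducible beta genes, which replace the catalytic subunits in the immunoproteasome and are known for their response to interferon, had a median log2 ratio of 0.09 as deposited, which was below 0 under each of the 4 scalings. PSMB10, which takes the place of PSMB7, was the only one of the 46 genes to be lower with ISOX as deposited, at 76.3 and 66.6 FPKM (log2 ratio −0.20). It was also lower under each of the 4 scalings, which all lower every ratio and so could not have raised it. PSMB8, which takes the place of PSMB5, was at 58.2 and 61.7 FPKM (log2 ratio 0.09, and below 0 under each scaling), and PSMB9, which takes that of PSMB6, at 26.4 and 33.5 FPKM (log2 ratio 0.34, below 0 by FPKM sums). Compared within a group, the level of PSMB10 was 0.855 of that of PSMB7 in untreated and 0.531 in ISOX-treated cells. PSMB8 was at 0.376 and 0.308 of PSMB5, and PSMB9 at 0.136 and 0.138 of PSMB6. The 3 pairs therefore did not shift alike: the difference of log2 ratios was −0.69, −0.29 and 0.02. Summed over the pairs, the inducible genes were at 0.367 of the constitutive ones without and 0.285 with ISOX. PSMB8 is listed with the same span on chromosome 6, from 32840717 to 32853971, as the peptide transporter gene TAP1 and the antisense gene PSMB8-AS1. The sources used here do not say that strand was used to part the reads of genes on opposite strands.

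The ATPases of the 19S cap differed among themselves. Of 6 ATPase genes, 2 were higher by more than 1.5-fold and none lower, beside 12.4% and 2.25% of all rows. Their median log2 ratio was 0.37 (below 0 when scaled by FPKM sums). PSMC6, on chromosome 14 from 52707178 to 52727998, was at 86.3 FPKM without and 151 FPKM with ISOX (log2 ratio 0.81). PSMC2, at 31.6 and 51.5 FPKM (log2 ratio 0.70), was the lowest of the ring in both groups. The other members were PSMC1 at 65.1 and 89.7 FPKM, PSMC3 at 102 and 124 FPKM, PSMC5 at 87.1 and 101 FPKM and PSMC4 at 52.5 and 58.5 FPKM, with log2 ratios from 0.16 to 0.46. The ratio of PSMC6 to PSMC4 within a group went from 1.64 to 2.59, although the ring holds a single copy of each.

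In the lid 1 of 8 genes with a PSM name was higher by more than 1.5-fold and none lower. The shares of all rows were 12.4% and 2.25%. All 8 genes lay above the median of all rows. The gene past 1.5-fold was PSMD14, the metalloprotease that takes the ubiquitin chain off the substrate. It was at 49.4 FPKM without and 79.4 FPKM with ISOX (log2 ratio 0.68). PSMD8 was just short of it at 139 and 206 FPKM (log2 ratio 0.57). The others, PSMD3, PSMD6, PSMD7, PSMD11, PSMD12 and PSMD13, are scaffold subunits and had log2 ratios from 0.28 for PSMD3 (61.4 and 74.6 FPKM) to 0.49 for PSMD6 (48.7 and 68.7 FPKM), with PSMD11 the least abundant at 31.8 and 42.4 FPKM. PSMD7, the partner of PSMD14 in the lid, was at 75.7 and 98.0 FPKM (log2 ratio 0.37). The median of these 8 genes was 0.39, just above 0 when scaled by FPKM sums. The 3 base genes that are no ATPases kept close together and near the median of all rows. PSMD2 was at 151 and 181 FPKM (log2 ratio 0.26), PSMD1 at 31.1 and 38.4 FPKM (0.30) and the ubiquitin receptor PSMD4 at 65.2 and 76.3 FPKM (0.23), and all 3 lay below 0 by FPKM sums.

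None of the genes with a PSM name for assembly, activation and inhibition of the particles was past 1.5-fold in either direction. Of all rows, 12.4% were higher and 2.25% lower by as much. None of these PSM genes stayed above 0 when scaled by FPKM sums. The core assembly chaperones ranged from PSMG1, at 31.6 and 33.2 FPKM (log2 ratio 0.07), to its partner PSMG2, at 47.6 and 59.8 FPKM (0.33). PSMG3 was at 63.5 and 76.5 FPKM and PSMG4 at 21.2 and 24.4 FPKM. Chaperones of the base were PSMD10, also known as the oncoprotein gankyrin, at 61.5 and 80.3 FPKM (log2 ratio 0.38), PSMD9 at 20.3 and 25.4 FPKM (0.32) and PSMD5 at 27.3 and 30.6 FPKM (0.16). Of the activators, PSME1 and PSME2, which form a ring together and are induced by interferon, were at nearly the same level in untreated cells, with 230 and 229 FPKM. With ISOX they were at 244 and 284 FPKM (log2 ratios 0.08 and 0.31). PSME3, a nuclear activator, was at 62.5 and 71.7 FPKM, PSME4 at 11.4 and 13.8 FPKM and the inhibitor PSMF1 at 18.6 and 19.9 FPKM (log2 ratio 0.10).

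The remaining names are either silent here or no part of the particle. PSMA8, a testis subunit, and PSMB11, a thymus subunit, were listed at 0 in both groups. So were 22 rows on alternate sequences of the genome, 7 each of PSMB8, PSMB9 and PSMB8-AS1 and 1 of PSMB3. PSMC3IP, which acts in meiotic recombination and shares only its name, was at 11.8 and 16.3 FPKM (log2 ratio 0.47). The antisense transcript PSMA3-AS1 was at 11.0 and 10.4 FPKM (log2 ratio −0.07) beside the 185 and 352 FPKM of PSMA3, and PSMD5-AS1 was at 2.44 and 2.45 FPKM. PSMB8-AS1 and PSMG3-AS1 stayed below 1 FPKM.

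Abundant genes had larger ratios in the table as a whole, and proteasome genes are abundant. Of the 46 genes, 44 lay in the top 3 of 10 equal bins of level, from 22.3 FPKM upwards. There 8 of them (18.2%) were higher and none lower by more than 1.5-fold, beside 15.2% and 0.979% of the 3575 rows of this range. Their median log2 ratio was 0.33 and that of all rows of the range 0.28. In the highest bin, from 73.6 FPKM, the medians were 0.42 for 22 proteasome genes and 0.33 for all rows, and in the bin below it 0.30 for 16 genes and 0.28. Across the 46 genes the ratio went with level (Spearman's rho 0.33) and little with transcript length (rho −0.09); across all rows rho was 0.19 with level and −0.12 with length, over 11915 and 10355 genes that share the same pooled libraries. This range of level was chosen as a background after the data had been seen. The part of level in the ratios of single members was not tested.

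**Figure D3:**
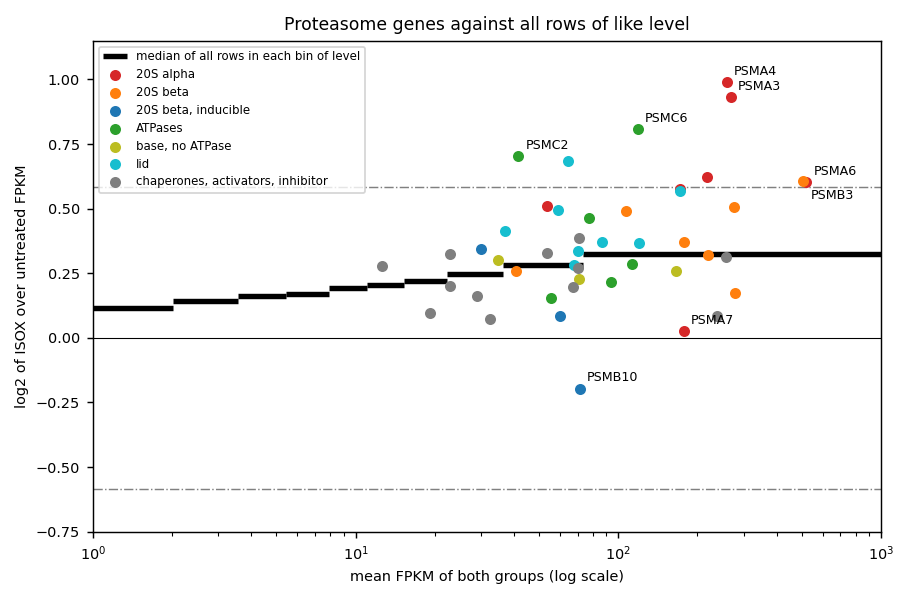
Log2 ratio of ISOX over untreated FPKM against mean FPKM (log axis) for 46 proteasome genes, with the median of all rows in each of 10 bins of level as black bars and 1.5-fold as grey lines. The bars climb from 0.11 in the lowest to 0.33 in the highest bin, and PSMA4, PSMA3 and PSMC6 lie above, PSMA7 and PSMB10 below the bars of their own level; under a scaling by FPKM sums all points and bars move down by 0.39.

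Promoter sequences were examined because proteasome genes are known to share a transcriptional control: the factor NRF1, when proteasome activity is low, acts through antioxidant response elements. RefSeq promoters of build GRCh38.p14, 300 bases from 250 before to 50 after an annotated start, were matched for 40 of the 46 genes, all but PSMA7, PSMB1, PSMB6, PSMB7, PSMD4 and PSMG3. The core of this element, TGACNNNGC on either strand, was found in 15 of the 40 (37.5%), beside 16.1% of 27305 genes with a promoter and 19.7% of 8553 that passed 1 FPKM here. Of the 8 genes past 1.5-fold it was found in PSMA4 and PSMB3, and of the 32 others in 13. The median log2 ratio was 0.30 in the 15 genes with and 0.38 in the 25 without it. The CCAAT box, CCAAT on either strand, was present in 19 (47.5%; 39.7% of all and 43.6% of expressed genes), among them 6 of the 8 genes past 1.5-fold and 13 of the 32 others, and the median log2 ratio was 0.38 with and 0.30 without it. Within the 150 bases before the start it was present in 11 (27.5%, beside 27.8% of all and 33.1% of expressed genes). These were 5 of the 8 genes past 1.5-fold (PSMA2, PSMA3, PSMB3, PSMC2 and PSMD14) and 6 of the 32 others. The median log2 ratio was 0.57 with and 0.31 without it. The GC box, GGGCGG on either strand, was present in 28 (70.0%, beside 48.3% of all and 77.6% of expressed genes). Among these were 6 of the 8 genes past 1.5-fold and 22 of the 32 others, and the median log2 ratio was 0.33 both with and without it. Genes may have several annotated starts, and a match in the window of any start was counted. The mean number of starts was 1.23 for the 40 genes, 1.45 for expressed genes and 1.29 for all genes. A match describes the letters only and is no evidence of binding.

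The 150 bases before the start (the most upstream one annotated) are shown for the genes with the largest and the smallest log2 ratios among the 40, so that the promoters at both ends can be read beside the values above. They run 5′ to 3′ on the strand of the gene, with matches to the 3 motifs in capitals. Those with the largest ratios lie at chr15:78540255-78540404 (PSMA4, plus strand), chr14:58244693-58244842 (PSMA3, plus), chr14:52707050-52707199 (PSMC6, plus) and chr7:103347493-103347642 (PSMC2, plus).
PSMA4: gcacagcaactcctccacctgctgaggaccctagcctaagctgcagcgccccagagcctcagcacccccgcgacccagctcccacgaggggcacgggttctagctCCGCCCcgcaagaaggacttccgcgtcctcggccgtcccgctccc
PSMA3: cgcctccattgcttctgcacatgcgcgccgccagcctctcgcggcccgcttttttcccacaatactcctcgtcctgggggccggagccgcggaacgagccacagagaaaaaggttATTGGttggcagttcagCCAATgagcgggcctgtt
PSMC6: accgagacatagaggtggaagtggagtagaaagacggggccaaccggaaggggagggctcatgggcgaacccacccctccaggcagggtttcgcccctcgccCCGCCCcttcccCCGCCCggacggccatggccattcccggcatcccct
PSMC2: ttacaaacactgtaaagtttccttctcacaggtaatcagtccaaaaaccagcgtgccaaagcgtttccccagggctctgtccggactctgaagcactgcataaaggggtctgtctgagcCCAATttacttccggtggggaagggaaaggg
Those with the smallest ratios lie at chr16:67936851-67937000 (PSMB10, minus strand), chr21:39183452-39183601 (PSMG1, minus), chr14:24136044-24136193 (PSME1, plus) and chr6:32844680-32844829 (PSMB8, minus).
PSMB10: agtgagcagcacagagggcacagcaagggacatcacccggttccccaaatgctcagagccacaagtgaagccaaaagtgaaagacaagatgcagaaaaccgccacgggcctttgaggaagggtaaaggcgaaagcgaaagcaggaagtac
PSMG1: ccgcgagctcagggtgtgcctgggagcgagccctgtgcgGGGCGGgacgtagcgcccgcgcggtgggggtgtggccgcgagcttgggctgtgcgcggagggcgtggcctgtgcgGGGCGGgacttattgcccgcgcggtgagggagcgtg
PSME1: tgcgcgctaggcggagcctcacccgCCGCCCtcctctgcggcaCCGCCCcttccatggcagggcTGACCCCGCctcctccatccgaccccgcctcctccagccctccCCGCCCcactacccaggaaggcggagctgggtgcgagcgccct
PSMB8: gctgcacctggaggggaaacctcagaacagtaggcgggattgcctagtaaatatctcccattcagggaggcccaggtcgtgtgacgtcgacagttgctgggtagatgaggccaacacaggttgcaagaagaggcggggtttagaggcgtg
In PSMA3 a CCAAT box on the opposite strand starts at base −35 from the start and one on the gene's strand at −18, and PSMC2 has one at −31. PSMC6 carries GC boxes at −48 and −36 and PSMA4 one at −45, while the TGACNNNGC and CCAAT matches counted for PSMA4 lie in the window of the most downstream of its 3 annotated starts. The printed window of PSME1 holds the only TGACNNNGC match of the 8, at −86, besides GC boxes at −125, −107 and −43. PSMG1 has GC boxes at −111 and −36, and its 300 bases hold 4 GC boxes, 1 TGACNNNGC and 1 CCAAT match. No motif was matched in these windows of PSMB10 and PSMB8, which says only that these letters are not there. Over 300 bases PSMB10 again had no match, and PSMB8 had 1 GC box at each of its 2 starts.

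The proteins that work with the particle but do not carry a PSM name included ratios above those of every PSM gene. Of 14 partner genes, 3 were higher by more than 1.5-fold and none lower, beside 12.4% and 2.25% of all rows. The median log2 ratio of the 14 was 0.24 (below 0 by FPKM sums), near the 0.21 of all rows. POMP, the chaperone that brings the half-particles of the core together, was at 107 FPKM without and 255 FPKM with ISOX, which is 2.38-fold. SHFM1, now named SEM1, a very small subunit of the lid, was at 499 and 1048 FPKM, which is 2.10-fold. Both ratios exceed those of all 46 genes with a PSM name, and both genes were higher by more than 1.5-fold under median scaling and under FPKM sums. AKIRIN2, which acts in the import of proteasomes into the nucleus, was at 17.8 and 28.6 FPKM (0.69), and its relative AKIRIN1 had the smallest ratio of the list (42.8 and 38.6 FPKM, −0.15). The ubiquitin receptor ADRM1 (89.4 and 93.7 FPKM) and the deubiquitinases USP14 (30.9 and 36.4 FPKM) and UCHL5 (27.2 and 35.6 FPKM) of the cap had log2 ratios of 0.07, 0.24 and 0.39.

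None of 14 genes in the NRF1 list was past 1.5-fold in either direction, beside 12.4% of all rows higher and 2.25% lower. NFE2L1, which encodes NRF1, was at 49.8 and 69.8 FPKM (log2 ratio 0.49) and its relative NFE2L2 at 32.9 and 46.0 FPKM (0.49). SEL1L, part of the machinery that draws proteins out of the endoplasmic reticulum, had the largest ratio of the list (13.6 and 20.1 FPKM, 0.57). The protease gene DDI2, which cuts NRF1 into its active form, had the smallest, at 7.05 and 5.83 FPKM (−0.27) in a row that it shares with RSC1A1.

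The median log2 ratio of 13 genes of ubiquitin, its activation and its delivery was 0.23 (below 0 by FPKM sums). As deposited, 1 was higher by more than 1.5-fold and none lower, beside 12.4% and 2.25% of all rows. Under median scaling none was past 1.5-fold. The gene past it as deposited was RPS27A, which encodes ubiquitin fused to a ribosomal protein, at 749 and 1188 FPKM (log2 ratio 0.67). UBB, a polyubiquitin gene, was at 510 and 554 FPKM (0.12). The shuttle receptor gene SQSTM1 was at 40.9 and 52.6 FPKM (0.36), and DDI2 had again the smallest ratio.

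Of 10 genes for the supply of peptides to MHC class I, the pathway that uses the products of the immunoproteasome, 2 were higher by more than 1.5-fold and none lower (12.4% and 2.25% of all rows). B2M, the light chain of these molecules, was at 1274 and 2564 FPKM (log2 ratio 1.01) and the heavy chain gene HLA-B at 30.0 and 53.9 FPKM (0.85). The peptide transporter genes TAP1 (7.62 and 9.42 FPKM, 0.31) and TAP2 (11.2 and 16.7 FPKM, 0.58) did not reach 1.5-fold. The smallest ratio of the list, −0.08, was that of TAPBP, at 41.6 and 39.4 FPKM in a row joined with ZBTB22. PSMB8, PSMB9 and PSMB10 therefore had smaller ratios than B2M and HLA-B; the difference was not tested. For scale, 2 other multi-subunit machines had medians like that of the proteasome (0.33): the CCT chaperonin 0.34 over 8 genes, and the V-ATPase 0.35 over 17 genes, all as deposited and both below 0 by FPKM sums. In the chaperonin CCT8 alone was higher by more than 1.5-fold as deposited, and not under median scaling or FPKM sums, at 144 and 218 FPKM (log2 ratio 0.61), and none was lower. In the V-ATPase ATP6V1E1 (58.3 and 105 FPKM, 0.85) and ATP6V1G1 (34.9 and 62.8 FPKM, 0.85) were higher by more than 1.5-fold as deposited and under median scaling, and none was by FPKM sums. None was lower as deposited, and the smallest ratio was that of ATP6V1C2 (1.27 and 0.853 FPKM, −0.57), which was lower by more than 1.5-fold under median scaling.

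**Figure D4:**
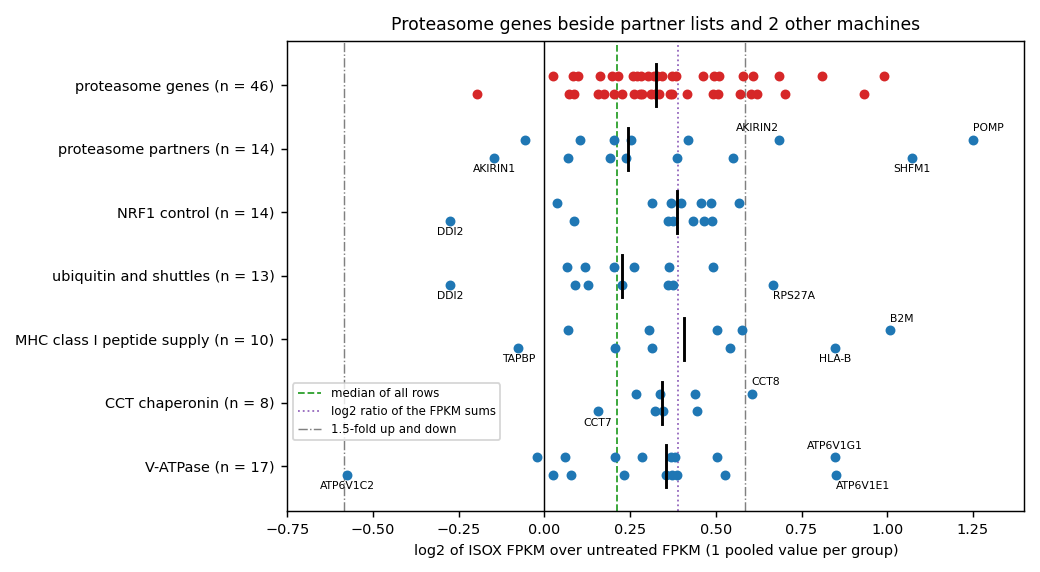
Log2 ratio of ISOX over untreated FPKM for 46 proteasome genes (red) beside 4 partner lists and 2 other machines (blue), as deposited; points are genes, black bars medians, and lines mark 0, the median of all rows (0.21), the log2 ratio of the FPKM sums (0.39) and 1.5-fold. POMP (2.38-fold) and SHFM1 (2.10-fold) lie to the right of all 46 genes, which are those with a PSM name. Under a scaling by FPKM sums the median of the 46 genes lies below 0.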

How the data were processed

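RNA of CD18/HPAF cells, untreated (12 samples) or with 1 µM ISOX for 48 h (12 samples), was sequenced by the authors. The submitters' processing notes name the hg38 build and the tools Bowtie, TopHat, Cufflinks and Cuffdiff. The sources used here give no tool version, annotation, strand setting or filter. Deposited values are FPKM from Cuffdiff as the authors ran it, pooled to a single value per gene and group. Their columns of log2 fold change, test statistic, p-value, q-value and test status were not used. Depth is unknown, so no interval was computed. Group names came from the sample titles, and 0 columns belonged to other series.

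The log2 ratio of ISOX over untreated FPKM was computed with no pseudocount for rows with a mean of at least 1 FPKM over both groups. A change past 1.5-fold was counted, beside the share of all such rows past it. Starts in the table count from 0 and are given counting from 1. The members and lists were chosen with earlier results of these data known. Values are given for every gene past 1.5-fold, for the extremes of each family, for the catalytic pairs and, in each partner list, for genes past 1.5-fold or the largest and smallest ratio; other members and partners are named for their roles. Some genes of the ubiquitin list are not reported here and were left out of its counts. Scalings, pseudocounts of 1 and 0.1 FPKM, minima of 0 and 5 FPKM, the fold, and the choice of rows were varied. Transcript lengths are medians of protein-coding transcripts in GENCODE release 29. The functions were tested on simulated data. Python 3.11.15, numpy 2.4.6, pandas 2.3.3, scipy 1.17.1 and matplotlib 3.10.9 were used.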

Additional observations from a re-analysis of the deposited data

How the results depend on the processing

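Over the 50 rows that passed the minimum (46 genes, 3 other names and the minor row of PSMA3), 8 were higher and 1 lower by more than 1.5-fold, with a median log2 ratio of 0.32. The number higher was 3 after subtraction of the median of all rows, 2 when scaled by the 75th percentile and 1 by FPKM sums, with or without the 10 highest rows, and the medians were 0.11, 0.0723, −0.0675 (FPKM sums) and −0.0447 (without the 10 highest). At a log2 ratio past 0.32 in place of 0.58 it was 25, and at 2-fold 0. The lower row was the minor row of PSMA3: the number was 0 without it, without rows that overlap others, in the top 3 bins of level, at a fold of 2 or with 1 FPKM added, and 2 by FPKM sums. By family, the number higher under median scaling and FPKM sums was 2 and 1 in place of 4 for the alpha ring, 1 and 0 in place of 2 for the ATPases, and 0 in both for the beta ring and the lid in place of 1. It was 0 in both for ubiquitin genes and for CCT in place of 1; by FPKM sums it was 1 in place of 2 for MHC class I and 0 in place of 2 for V-ATPase. CCAAT matches were 11 in place of 19 in the shorter window. None of the 4 scalings used could change the sign of a gene past 1.5-fold as deposited, since their largest shift was 0.39 and the cut 0.58. A scaling with a larger shift was not examined. No paired analysis was possible because the table holds a single pooled value per group, and for the same reason no replicate could be left out. The leaving out of the minor row and of overlapping rows and the range of level were chosen after seeing the data.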
